A study of Rattus norvegicus with 12 samples.

Results

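The sterol regulatory element-binding proteins (SREBPs), the proteins that hold them in the endoplasmic reticulum, and further regulators of lipogenesis were followed in rats after a thermal injury. The 9 genes are Srebf1, Srebf2, Scap, Insig1, Insig2, Mlxipl, Pparg, Thrsp and Mid1ip1. They were chosen by name, and a probe set counted as a member where the platform's annotation gave it exactly 1 gene and that gene was among the 9. This gave 13 probe sets out of 15866 tested, for 9 of 10411 genes. Thrsp had 3 probe sets, Srebf1 and Srebf2 had 2 each, and each other gene had 1.

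Each sample set total RNA of a rat with a thermal injury against that of a sham control on Affymetrix RAE230A arrays, with 3 samples on each of days 2, 4 and 7 and 9 in all. The labels name neither the tissue nor the strain, age or sex of the rats, nor the extent of the injury. Whether different animals gave the samples of 1 day is also not said, so the p-values measure only the spread between these samples. Values are log2 ratios, each array centred on its own median. Injury over sham is the likely direction, since injury is labelled as channel 2 and sham as channel 1, but the order is not stated, and every sign below rests on it. Day 1 was left out because its identifiers did not stand for the same probe sets: the rank correlation of signals recovered from the ratios lay between 0.493 and 0.568 for array pairs within days 2, 4 and 7, but between -0.0132 and 0.0179 for day 1 against those days.

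SREBPs are transcription factors made as membrane proteins. When sterols are scarce, Scap escorts the precursor to the Golgi, where proteases free the active factor. When sterols are plentiful, the Insig proteins retain Scap and the precursor in the endoplasmic reticulum. In liver, SREBP-2 chiefly drives sterol synthesis and uptake, whereas SREBP-1c, together with the glucose-sensing factor ChREBP (Mlxipl), drives fatty acid synthesis. Because the factors are controlled by proteolysis, the RNA measured here is not a reading of active protein.

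The promoters of 3 genes whose values are given in detail below are shown, to set the upstream sequence of an SREBP, of an Insig and of a lipogenic target beside their data. They are the 250 bases before a RefSeq start site of each gene in GRCr8, printed 5′ to 3′ on the gene's strand. The Srebf2 window lies inside the annotated bounds of its gene, and the Insig1 window overlaps those of its gene. Capitals mark the NF-Y box, CCAAT, which reads ATTGG here, and the E-box CACGTG. The windows are chr7:115543057-115543306 (plus strand) for Srebf2, chr4:8057770-8058019 (minus strand) for Insig1 and chr1:161138965-161139214 (minus strand) for Thrsp.
Srebf2: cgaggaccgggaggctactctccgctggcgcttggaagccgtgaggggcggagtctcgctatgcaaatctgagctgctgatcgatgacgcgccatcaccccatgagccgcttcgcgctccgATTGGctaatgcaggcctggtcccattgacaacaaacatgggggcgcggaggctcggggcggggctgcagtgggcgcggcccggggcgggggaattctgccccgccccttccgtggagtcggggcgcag
Insig1: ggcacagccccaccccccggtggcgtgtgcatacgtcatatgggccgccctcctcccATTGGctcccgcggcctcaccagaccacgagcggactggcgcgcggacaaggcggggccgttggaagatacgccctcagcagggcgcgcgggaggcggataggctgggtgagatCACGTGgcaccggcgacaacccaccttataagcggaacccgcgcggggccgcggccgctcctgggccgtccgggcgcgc
Thrsp: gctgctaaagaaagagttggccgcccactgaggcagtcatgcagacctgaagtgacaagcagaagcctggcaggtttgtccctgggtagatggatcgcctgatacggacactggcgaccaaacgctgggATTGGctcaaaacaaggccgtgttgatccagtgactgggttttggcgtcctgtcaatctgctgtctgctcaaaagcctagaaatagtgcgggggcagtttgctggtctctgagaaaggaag

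The 9 genes had 12 windows of 300 bases, which add the 50 bases after the start. Searched on both strands, CCAAT was found in 9 of 12 windows, from 7 of 9 genes, against 37.5% of all 33469 promoters in the table. The 2 Mlxipl windows overlap almost wholly, so the same sites were counted in both. The share over all promoters is by window, not by gene. CACGTG, which is its own reverse complement, was found in 2 of 12 windows, those of Insig1 and Scap, against 6.42% of all promoters. The sterol regulatory element was sought only in the spelling TCACNCCAC, which was in none of the 12 windows, against 1.12% of all promoters. Other spellings of the element were not searched. The motifs do not overlap each other in the printed windows, and a match describes the letters only.

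No member passed the test (limma with Benjamini-Hochberg adjustment over 15866 probe sets, threshold 0.05) on any day or between days. Few probe sets of the array did. On day 2, 0 of 13 members were called, against 0.107% of all probe sets (17). On day 4 it was 0 of 13, against 0.0063% (1), and on day 7 0 of 13, against 0.0567% (9). For the mean of the 3 days it was 0 of 13, against 0.309% (49). Between days, 0 of 13 members were called from day 2 to day 4 and from day 2 to day 7, and in the F test over the 3 days, with 0% of all probe sets called in each. From day 4 to day 7 it was 0 of 13, against 0.0189% (3).

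At an unadjusted p under 0.05, 5 of 13 members were reached on day 2, all higher in injury, against 8.97% of all probe sets. They came from 3 genes, because 3 of them were the probe sets of 1 gene, Thrsp. Without sample 2 of day 2 the day 2 count was 0 of 13, and averaged by gene it was 2 of 9. With all samples and probe sets, the count was 2 of 13 on day 4, against 9.8%, and 3 of 13 on day 7, against 12.6%. It was 5 of 13 for the mean of the days, against 10.7%, and 3 of these were again the Thrsp probe sets. Averaged by gene, that count was 2 of 9. For day 4 minus day 2 it was 2 of 13, against 8.68%. For day 7 minus day 2 it was 2 of 13, against 8.36%, and for day 7 minus day 4 it was 0 of 13, against 12.7%. In the F test it was 2 of 13, against 11.7%. The adjusted p was at least 0.192 for every member in every one of these comparisons.

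The members lay mostly above 0 on day 2, with 11 of 13 probe sets positive and a median of 0.22, where 49.9% of all probe sets were positive. On day 4, 6 of 13 were positive with a median of -0.03, and on day 7 6 of 13 with a median of -0.04. By a brightness estimated from the ratios, 11 of the 13 lay in the top 25% of the array. For 6 of these the estimate was at its cap of 20000, where no pair of signals was found in most samples, so it gives them no order. The number of arrays limits the precision. In mixed tissue, fewer cells of a type and less RNA per cell cannot be told apart.

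**Figure D1:**
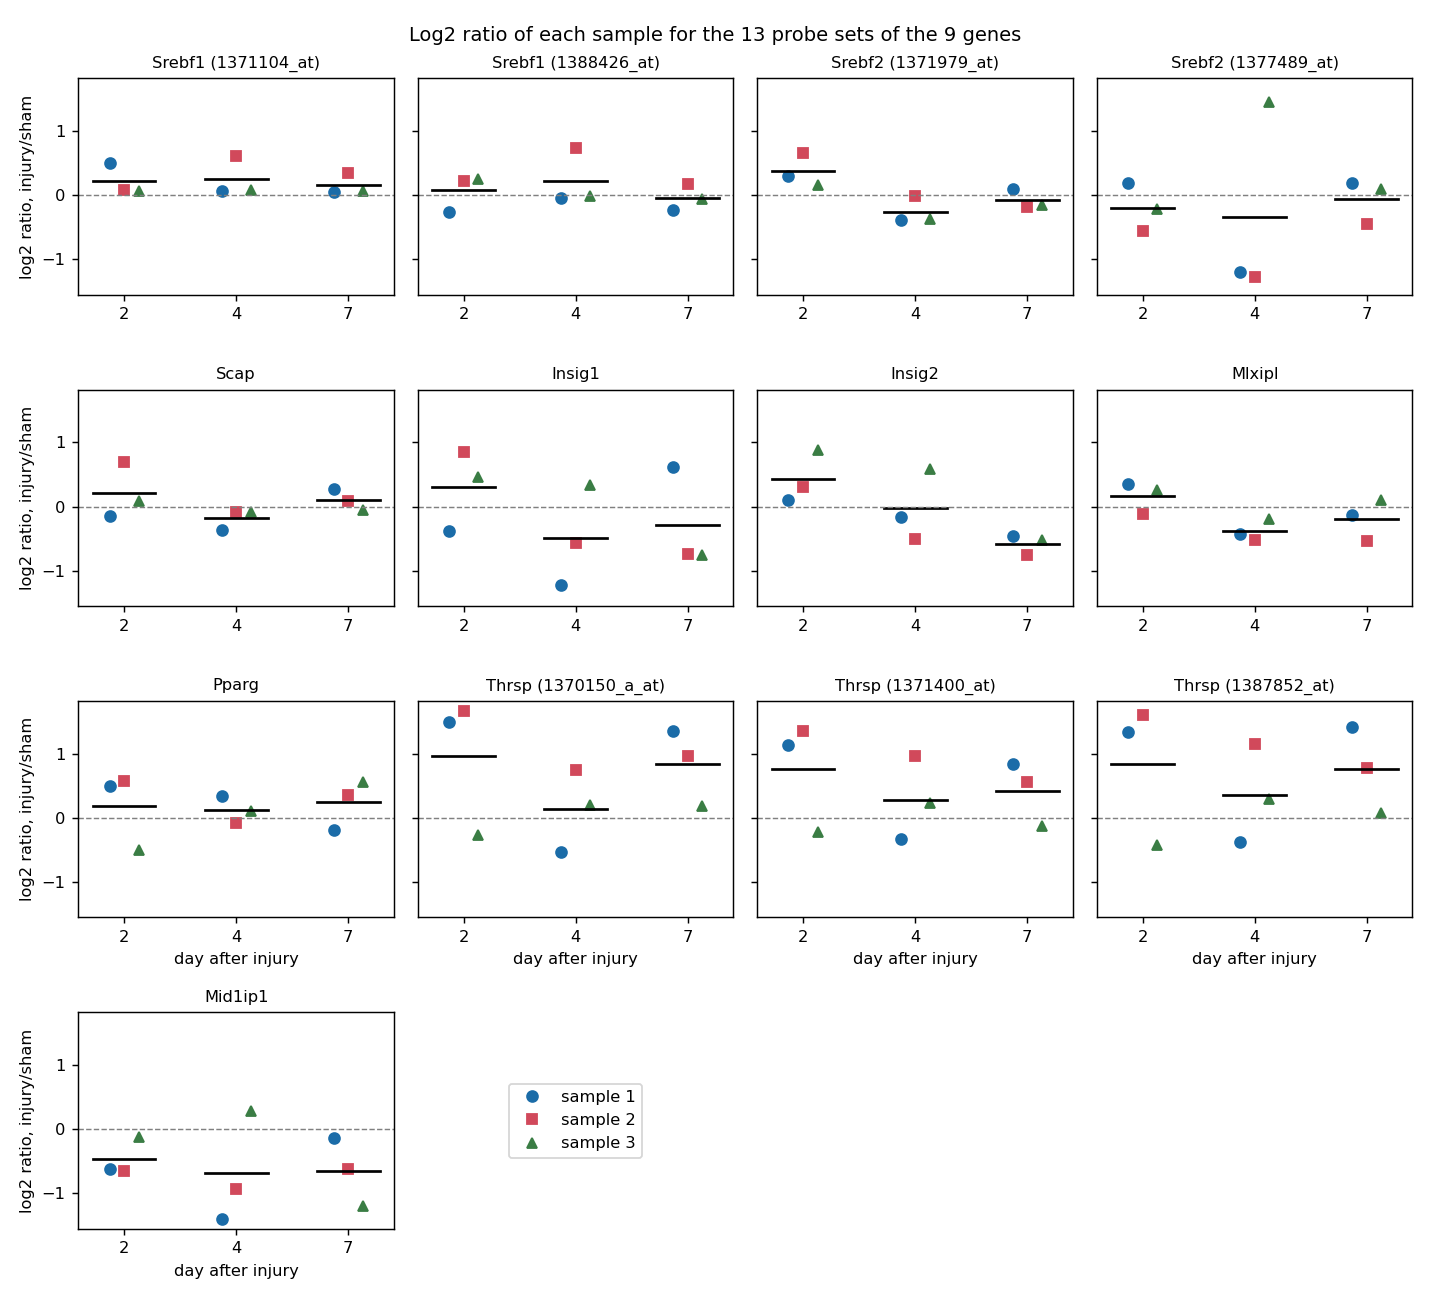
Log2 ratio of injury over sham (vertical axis) of each of the 13 member probe sets in every sample of days 2, 4 and 7, with 1 panel per probe set, 1 point per sample and a line for the mean of a day. The 3 Thrsp probe sets move together from sample to sample, and the Mid1ip1 points lie below 0 in 8 of 9 samples.

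Srebf1 encodes SREBP-1, whose 1c form drives fatty acid synthesis. Its probe set 1371104_at gave log2 ratios of 0.50, 0.08 and 0.07 on day 2, of 0.06, 0.61 and 0.09 on day 4, and of 0.04, 0.35 and 0.06 on day 7. It was above 0 in all 9 samples, as were 0.473% of all probe sets, but 6 of the 9 values were under 0.1. Its mean over the days was 0.21 (95% interval 0.03 to 0.38), a 1.15-fold ratio, with an adjusted p of 0.381. The second probe set, 1388426_at, gave -0.26, 0.23 and 0.26 on day 2, -0.04, 0.74 and -0.02 on day 4, and -0.23, 0.17 and -0.06 on day 7. The sign of the pair matched in 4 of 9 samples, and their correlation over the samples was 0.44. Both were highest in sample 2 of day 4, and the array annotation used here does not say which Srebf1 transcript either probe set reads.

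Srebf2 encodes SREBP-2, the factor of the sterol pathway. Probe set 1371979_at, in the top 25% by brightness, gave 0.30, 0.66 and 0.16 on day 2, -0.38, -0.02 and -0.36 on day 4, and 0.10, -0.18 and -0.16 on day 7. Every day 2 sample lay above 0 and above every sample of days 4 and 7, and every day 4 sample lay below 0. A day 4 range wholly below that of day 2 was found in 7.18% of all probe sets, and a day 7 range wholly below it in 6.49%. All day 2 samples above 0 with all day 4 samples below it were found in 2.57%. The day means were 0.37 ± 0.26, -0.25 ± 0.21 and -0.08 ± 0.16 (SD, n = 3 each). Day 4 minus day 2 was -0.62 (95% interval -1.03 to -0.22), with an adjusted p of 0.345 in limma, and day 7 minus day 2 was -0.45 (adjusted p 0.583).

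The other Srebf2 probe set, 1377489_at, was dim, with only 16.4% of all probe sets dimmer. It gave 0.19, -0.55 and -0.21 on day 2, -1.19, -1.28 and 1.46 on day 4, and 0.19, -0.45 and 0.09 on day 7. Its day 4 samples spanned both the lowest and the highest value of all 9. Its correlation with the bright probe set over the samples was -0.13, so the pattern by day of Srebf2 rests on 1 probe set.

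Scap is the escort protein of the SREBPs. It gave -0.14, 0.70 and 0.09 on day 2, -0.36, -0.08 and -0.09 on day 4, and 0.27, 0.08 and -0.05 on day 7. The day 7 samples all lay above the day 4 samples, as in 9.15% of all probe sets. Day 7 minus day 4 was 0.28 ± 0.21 (SE), with an adjusted p of 0.661, and the interval of -0.19 to 0.74 spans 0.

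Insig1 and Insig2 retain Scap, and Insig1 is itself a known SREBP target. Insig1 gave -0.38, 0.85 and 0.47 on day 2, -1.23, -0.57 and 0.34 on day 4, and 0.62, -0.74 and -0.75 on day 7. Each day held samples on both sides of 0, and the ranges of the days overlapped. Its SD over 3 samples was between 0.63 and 0.79, and day 4 minus day 2 was -0.80 (95% interval -1.79 to 0.19; adjusted p 0.676).

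Insig2 had a different order over the days. It gave 0.10, 0.31 and 0.88 on day 2, -0.16, -0.51 and 0.59 on day 4, and -0.47, -0.75 and -0.52 on day 7. All day 2 samples were above 0 and all day 7 samples below it, a pattern that 1.92% of all probe sets showed. The day means were 0.43 ± 0.40, -0.03 ± 0.56 and -0.58 ± 0.15 (SD, n = 3 each), and the day 7 mean is a 0.67-fold ratio. Day 7 minus day 2 was -1.01 (95% interval -1.60 to -0.41), with an adjusted p of 0.466 in limma. No probe set of the array was called in that comparison.

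**Figure D2:**
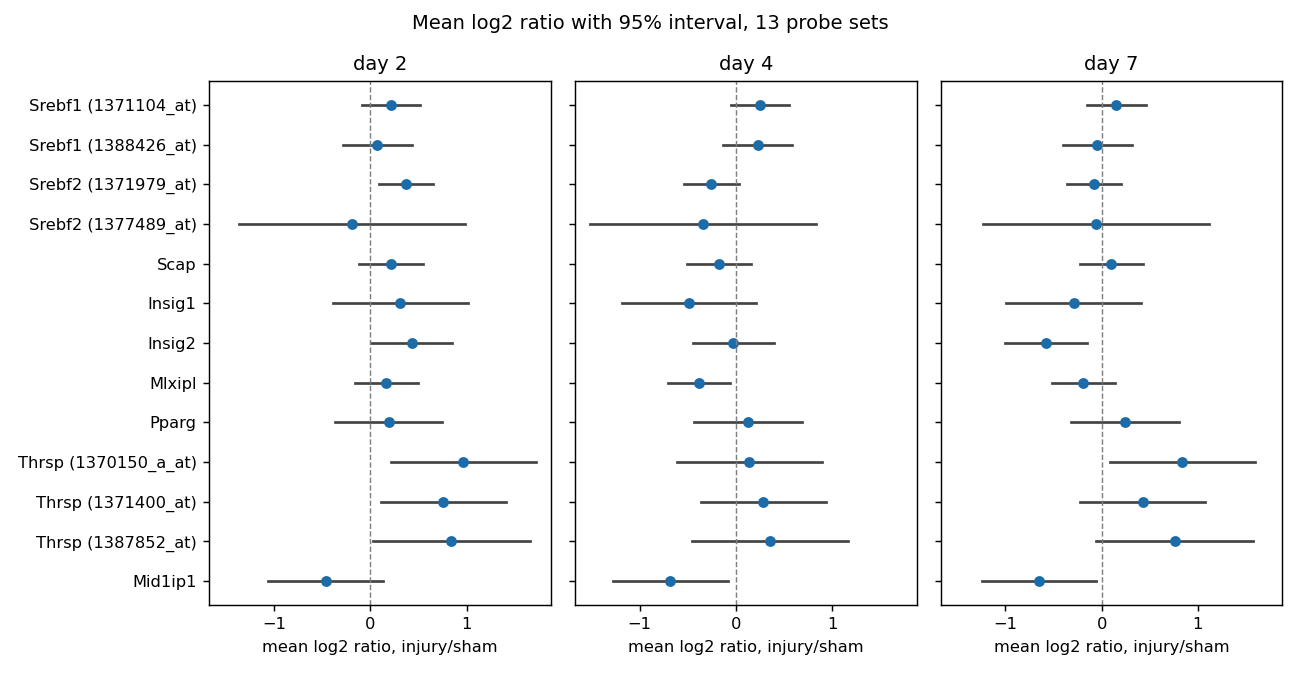
Mean log2 ratio of injury over sham for each member probe set on days 2, 4 and 7 with 95% intervals from the fit across all probe sets. The upper end of the Insig2 interval on day 7 is -0.16, and the interval of the dim Srebf2 probe set is the widest on each day.

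Mlxipl encodes ChREBP, which responds to glucose. It gave 0.35, -0.12 and 0.26 on day 2, -0.43, -0.52 and -0.20 on day 4, and -0.14, -0.53 and 0.10 on day 7. The day 4 samples all lay below 0, as in 16.6% of all probe sets, and below every day 2 sample, as in 7.18%. Its day 4 mean was -0.38 ± 0.17 (SD, n = 3; adjusted p 0.42), and day 4 minus day 2 was -0.55 ± 0.21 (SE), with an adjusted p of 0.486.

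Pparg encodes PPARγ, the nuclear receptor that drives fat cell differentiation and is scarce in healthy liver. It gave 0.50, 0.57 and -0.50 on day 2, 0.34, -0.08 and 0.11 on day 4, and -0.18, 0.36 and 0.56 on day 7. Each day had at least 1 sample below 0, and the mean over the days was 0.19 (95% interval -0.14 to 0.51). The probe set was below the median brightness of the array, with 44.5% of probe sets dimmer.

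Thrsp encodes Spot 14, a nuclear protein induced by thyroid hormone and carbohydrate that promotes lipogenesis. Probe set 1370150_a_at gave 1.49, 1.67 and -0.26 on day 2, -0.53, 0.74 and 0.21 on day 4, and 1.35, 0.97 and 0.19 on day 7. These are among the largest values of the members, and 7 of 9 were above 0, but the samples of days 2 and 4 lay on both sides of it. The other probe sets followed it closely. Probe set 1371400_at gave 1.14, 1.35 and -0.22 on day 2, -0.33, 0.96 and 0.23 on day 4, and 0.84, 0.56 and -0.12 on day 7. Probe set 1387852_at gave 1.34, 1.61 and -0.42 on day 2, -0.38, 1.15 and 0.29 on day 4, and 1.42, 0.78 and 0.08 on day 7. The correlations between the 3 probe sets over the samples were 0.95, 0.97 and 0.98. The differences between samples of a day were therefore seen by all 3 probe sets, whose disagreement in a sample averaged 0.15 to 0.26.

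The mean of 1370150_a_at over the days was 0.65 (95% interval 0.21 to 1.08), a 1.57-fold ratio, with an adjusted p of 0.267. Without sample 3 of day 2 it was 0.85 with an adjusted p of 0.0474, which passes the threshold. For the other Thrsp probe sets the adjusted p of this mean was at least 0.0754 (1387852_at) and 0.106 (1371400_at) under all 16 alternatives, so neither was called. Sample 3 of day 2 was below 0 in all 3 Thrsp probe sets, while the other samples of that day were at least 1.14.

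Mid1ip1 encodes the paralog of Spot 14, which promotes the polymerisation of acetyl-CoA carboxylase. It gave -0.61, -0.65 and -0.12 on day 2, -1.40, -0.93 and 0.29 on day 4, and -0.13, -0.62 and -1.20 on day 7. It was below 0 in 8 of 9 samples. Its mean over the days was -0.60 (95% interval -0.94 to -0.25), a 0.66-fold ratio, with an adjusted p of 0.192, the lowest of any member. Without sample 3 of day 4, the only sample above 0, it was -0.76 with an adjusted p of 0.0337. No other of the 16 alternatives called it. Over all of them the mean ran from -0.76 to -0.48 and the adjusted p up to 0.429. The 2 paralogs thus had means of opposite sign, and the difference between them was not tested.

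**Figure D3:**
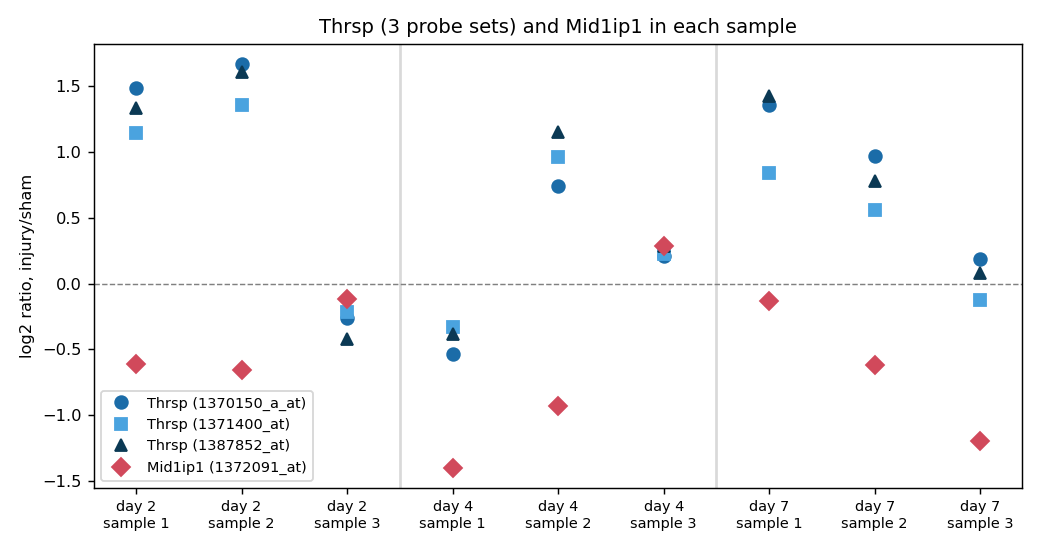
Log2 ratio of injury over sham in each of the 9 samples for the 3 Thrsp probe sets and for Mid1ip1. The Thrsp points of a sample lie close together, and in 7 of 9 samples Thrsp 1370150_a_at lies above 0.

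Genes of the pathways that these factors serve were followed as lists, of which no member gene was part. Of the sterol synthesis and uptake list, 17 of 23 genes were measured by 25 probe sets. On day 2, 22 of 25 lay above 0 with a median of 0.21. On day 4, 22 of 25 lay below 0 with a median of -0.39, and 14 of 25 reached an unadjusted p under 0.05, against 9.8% of all probe sets. On day 7, 12 of 25 lay above 0, with a median of -0.01. Day 4 minus day 2 was below 0 for 24 of 25 with a median of -0.66, against a median of 0.01 over all probe sets.

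After adjustment 1 of the 25 was called. Lss, which encodes lanosterol synthase, fell on day 4, with log2 ratios of -1.75, -3.37 and -3.24 and a mean of -2.78 ± 0.90 (SD, n = 3; adjusted p 0.0453). The call was lost in 10 of 16 alternatives, with an adjusted p of up to 0.681. Sqle, squalene epoxidase, had -1.34, -1.27 and -0.85 on day 4 (adjusted p 0.116), and Msmo1, a demethylating oxidase of the pathway, averaged -0.98 (adjusted p 0.142). On day 2, Ebp, a sterol isomerase, had 0.63, 1.15 and 0.40 (adjusted p 0.121), and on day 7 Sqle had 0.56, -0.11 and 0.90.

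The sample medians of the sterol list were 0.17, 0.21 and 0.30 on day 2, -0.51, -0.36 and -0.30 on day 4, and 0.31, -0.45 and 0.16 on day 7. Srebf2 1371979_at was above 0 in the day 2 samples and below 0 in the day 4 samples, as the list median was. The day 7 samples of the list split, with sample 2 low. The hepatocyte markers had smaller ratios of the same sign on days 2 and 4: 11 of 13 probe sets were above 0 on day 2 with a median of 0.13, and 11 of 13 were below 0 on day 4 with a median of -0.16 and on day 7 with a median of -0.13. Their sample medians ran from 0.01 to 0.24 on day 2 and from -0.33 to 0.01 on day 4. On day 4 the red cell markers, 5 probe sets, had sample medians of 0.34, 0.47 and 1.11, and the macrophage markers, 6 probe sets, had 0.12, 0.36 and 0.17, above 0 where the sterol list was below it. The part of these markers in the values of the list and of the members was not tested. As a sign of RNA quality, the ratio of the actin control's 3′ probe set minus that of its 5′ probe set was -0.79, -0.31 and -0.06 on day 2, -0.35, 0.38 and 0.23 on day 4, and -0.88, -0.44 and -0.88 on day 7. It was below 0 in every day 7 sample, as Insig2 was, and in every day 2 sample, where Insig2 was above 0. The same difference for the GAPDH control was -0.42, -0.19 and 0.11 on day 2. It was 0.14, 0.31 and -0.08 on day 4, and -0.39, -0.21 and -0.80 on day 7. The part of RNA quality in the Insig2 values was not tested.

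**Figure D4:**
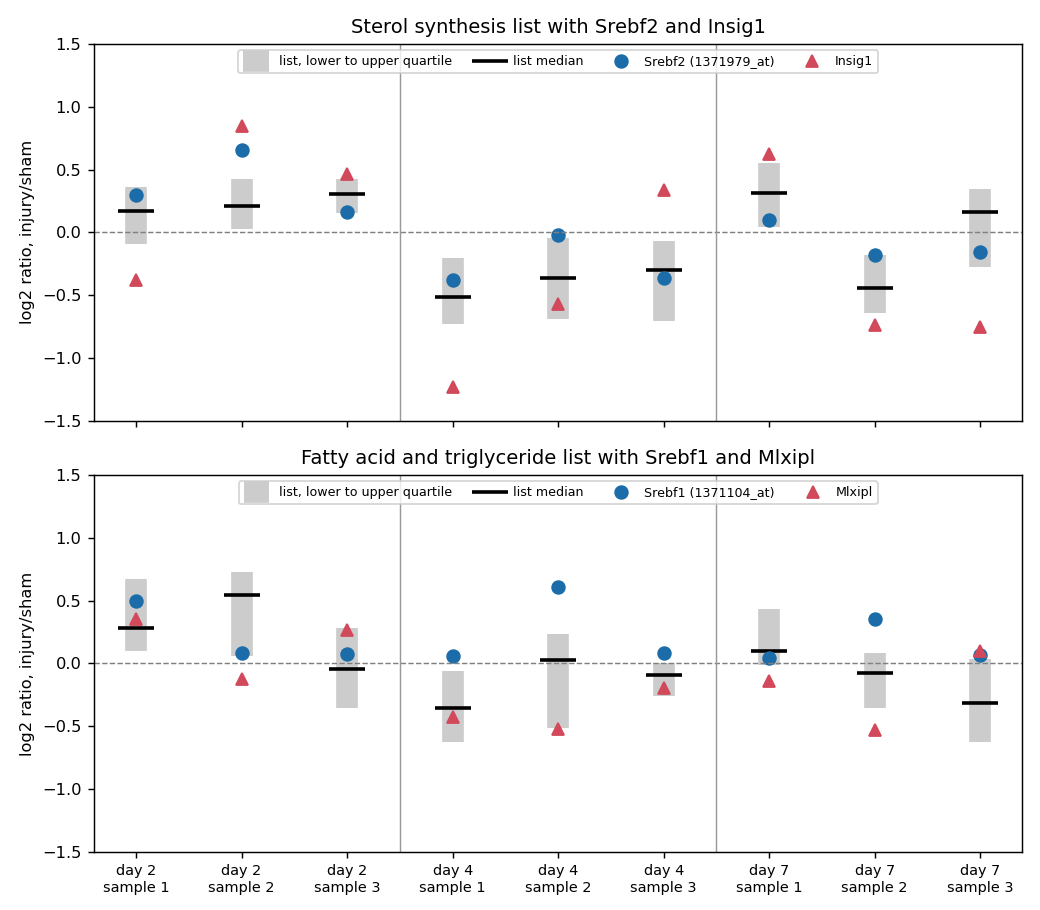
Log2 ratio of injury over sham by sample. The upper panel sets the sterol list (quartiles and median) beside Srebf2 and Insig1, and the lower panel sets the fatty acid and triglyceride list beside Srebf1 and Mlxipl. The sterol list median is above 0 in all day 2 samples and below 0 in all day 4 samples.

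Of the fatty acid and triglyceride synthesis list, 20 of 22 genes were measured by 27 probe sets, and 0 were called on any day. On day 2, 19 of 27 were above 0 with a median of 0.27. On day 4, 16 were below 0 with a median of -0.23, and on day 7, 19 were below 0 with a median of -0.15. Elovl5, a fatty acid elongase, averaged 0.74 on day 2 and -0.72 on day 4 by 1 probe set, 1387630_at. Day 4 minus day 2 of this probe set was -1.46 (adjusted p 0.098). With its probe sets averaged by gene, Elovl5 had a smaller day 2 value, 0.48. Acacb, the mitochondrial acetyl-CoA carboxylase, averaged 0.90 on day 2, -0.84 on day 4 and 1.11 on day 7. Acaca, the cytosolic form, had 0.95, 0.74 and 1.20 on day 7, all above 0, with an adjusted p of 0.0859. The samples of this list differed within a day, with medians of 0.28, 0.55 and -0.05 on day 2. Sample 3 of that day was also the sample in which Thrsp was below 0.

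Of the list of PPARγ target genes, 12 of 15 were measured by 14 probe sets, with medians of -0.18 on day 2, 0.09 on day 4 and 0.06 on day 7. The fatty acid transporter Cd36 rose on day 2, with 2.37, 1.90 and 1.66 (mean 1.98 ± 0.36, SD, n = 3; adjusted p 0.0361), a call lost in 11 of 16 alternatives. Plin4, a lipid droplet protein, averaged -1.01 on day 2 (adjusted p 0.354). Adipocyte markers, 5 probe sets of 5 genes, had medians of -0.17, -0.02 and 0.16 on days 2, 4 and 7, and their part in the Pparg values was not tested.

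Of the upstream and partner regulators, 35 of 38 genes were measured by 51 probe sets, with medians of 0.12, -0.10 and 0.02 on days 2, 4 and 7. Prkaa2, a catalytic subunit of the AMP-activated kinase that restrains lipogenesis, fell on day 2, with -1.03, -1.59 and -0.82 (mean -1.14; adjusted p 0.0361). Hnf4a, a nuclear receptor of hepatocytes, was called higher on day 7 by 1 of its probe sets, 1369289_at (1.14 ± 0.47, SD, n = 3; adjusted p 0.0394). These calls were lost in 9 and 10 of 16 alternatives. Another Hnf4a probe set, 1382496_at, gave 1.21, 0.78 and 0.21 on day 7 and was not called (adjusted p 0.172). On day 4 exocrine pancreas markers were above 0 in 10 of 10 probe sets with a median of 1.90, and their sample medians were 0.03, 3.44 and 1.78. Their part in the day 4 values was not tested.

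By correlation of the log2 ratios over the 9 samples, among 6820 bright probe sets of single genes, Srebf2 1371979_at was most like Relb (r = 0.970), an NF-kB subunit, and Serpina10 (r = 0.964). Fdft1, squalene synthase and the third in order, had r = 0.936. With the day means removed, r was 0.947 for Relb, 0.914 for Serpina10 and 0.768 for Fdft1. Insig2 was most like Cyp2c22 (r = 0.972), Als2cl (r = 0.964) and Cyp2d2 (r = 0.951), of which both Cyp genes are cytochrome P450s. Thrsp 1370150_a_at and 1387852_at were most like Tle4 (r = 0.943 and r = 0.969), a transcriptional corepressor. For 1370150_a_at, Mfn1 was almost level (r = 0.942). Thrsp 1371400_at was most like Casp1 (r = 0.951), with Tle4 next (r = 0.948). For the remaining members the highest r lay between 0.889, Slco1b2 for Mid1ip1, and 0.973, Zdhhc7 for Srebf1 1388426_at. Such values describe 9 samples that share arrays and day, and were the highest of all those searched.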

How the data were processed

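The authors deposited 1 log2 ratio per probe set and sample. Per the labels, channel 2 held injury and channel 1 sham. The scaling, the software and the build behind the probe design are not given in the sources used. The 9 arrays of days 2, 4 and 7 were used, day 1 being left out, and 57 control probe sets were dropped. The median of every array, -0.13 to 0.16, was subtracted from its values. Brightness was estimated from the ratios by seeking the pair of whole-number signals behind each (continued fractions, tolerance 1e-09, cap 20000). A pair was found for 94.0% to 94.7% of ratios per array, against 11.9% to 13.2% of shifted values, and a ratio with none was set at the cap. The test was limma 3.58.1 in R 4.3.3 (lmFit, eBayes with trend on brightness, a mean per day), adjusted over 15866 probe sets by Benjamini-Hochberg at 0.05. It was tested on simulated data with changes planted on day 4. For day 4 it recovered 6% of changes of 0.5 log2, 34% of 1 and 78% of 2. For day 4 minus day 2 it recovered 0%, 8% and 52% of them. A probe set that was not called is therefore not shown to be unchanged. Over all probe sets, arrays of the same day correlated between 0.0027 and 0.15, and arrays of different days between -0.10 and 0.12. Among the top 25% by brightness, these ranges were 0.05 to 0.53 and -0.26 to 0.31. Samples of a day were therefore little alike over all probe sets. Gene names came from the platform annotation. The genes, lists and tests were chosen with earlier results of these data known. The named genes were every member probe set, the 3 probe sets of lowest unadjusted p per list and comparison, of which the text gives some, and the 3 most alike genes. Alternatives were a constant prior, no centring, equal spread, array weights, a filter on dim probe sets, averaging by gene, a replicate block, and each sample left out.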

Additional observations from a re-analysis of the deposited data

Results flagged for a closer look

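Srebf2 1371979_at differed in sign between days: every sample was above 0 on day 2 and below 0 on day 4, and day 4 minus day 2 was -0.62 (unadjusted p 0.00545, adjusted p 0.345, limma over 9 arrays). Both sides have 3 samples, and 2.57% of all probe sets showed the same pair of signs. Insig2 1389377_at was above 0 in every day 2 sample and below 0 in every day 7 sample, and day 7 minus day 2 was -1.01 (unadjusted p 0.00326, adjusted p 0.466). Neither difference passed the test.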

How the results depend on the processing

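No member probe set was called under the 7 settings tried beside left-out samples. On day 2, 5 of 13 members had an unadjusted p under 0.05 in the main fit. With a constant variance prior 2 had, with equal spread or array weights 3, without centring 4, and with a replicate block 5. Counts of called probe sets moved by over 1.5 times as follows, and the cause was not tested. With a constant variance prior they were 0 on day 2, 0 on day 4, 1 on day 7, 2 for the mean of the days and 1 for day 7 minus day 4, against 17, 1, 9, 49 and 3. Without centring they were 22 on day 7 and 1 for day 7 minus day 4. With equal spread they were 4 on day 7, 100 for day 7 minus day 4 and 1 in the F test. With array weights they were 3 on day 2, 6 on day 4, 30 for day 7 minus day 4 and 1 in the F test. Without the dimmest 25% of probe sets, 11903 were tested. The counts were then 20 on day 7, 43 for day 7 minus day 4 and 1 in the F test. The dim Srebf2 probe set has no value in that setting. Averaged by gene, 10411 genes were tested in place of 15866 probe sets. The counts were then 0 on day 4, 5 on day 7 and 1 in the F test.

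With the sample number as a replicate block they were 5 on day 2, 0 on day 4 and 5 for day 7 minus day 4. Same-numbered samples of different days correlated between -0.0309 and 0.0546, so the numbers were not taken to pair samples, and a sample correlated best with its own number in 4 of 18 cases.

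With each sample left out in turn, the counts ran from 1 to 34 on day 2, 0 to 5 on day 4, 0 to 36 on day 7, 21 to 52 for the mean, 0 to 6 for day 4 minus day 2, 0 to 56 for day 7 minus day 4, 0 to 1 for day 7 minus day 2 and 0 to 17 in the F test. Called members for the mean of the days ran from 0 to 1, namely Thrsp without sample 3 of day 2 and Mid1ip1 without sample 3 of day 4, and were 0 elsewhere.

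Signs turned for the values below, not all of which were near 0 in the main fit. On day 4 that fit gave 0.35 for Thrsp 1387852_at and -0.34 for Srebf2 1377489_at. Averaged by gene, Srebf2 was 0.0893 on day 2 and Srebf1 0.0554 on day 7. Without centring on day 7, Srebf2 1371979_at was 0.00639, Srebf2 1377489_at 0.0286 and Srebf1 1388426_at 0.0412. With samples left out, Srebf1 1388426_at ran from -0.0164 to 0.24 on day 2, -0.0302 to 0.36 on day 4 and -0.15 to 0.0522 on day 7. Scap ran from -0.0276 to 0.39 on day 2, and Insig2 from -0.34 to 0.21 on day 4. Srebf2 1377489_at ran from -1.24 to 0.13 on day 4 and -0.18 to 0.14 on day 7. On day 4 the Thrsp probe sets ran from -0.16 to 0.48 (1370150_a_at), -0.0512 to 0.59 (1371400_at) and -0.0456 to 0.72 (1387852_at).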
